A study of Mus musculus with 18 samples.

Results

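The BCL2 family decides whether a cell opens its mitochondria and dies, and 10 of its genes were followed from the progenitor to the mature neutrophil in mouse bone marrow. They were taken by symbol from an expression table of 34896 genes: the pro-survival genes Mcl1, Bcl2, Bcl2l1, Bcl2a1a, Bcl2a1b and Bcl2a1d, the pore-forming effectors Bax and Bak1, and the BH3-only genes Bcl2l11 and Pmaip1. All 10 were found, and all 10 were among the 13061 genes that reached 1 TPM in at least 3 of the 9 RNA-seq libraries and were tested. TPM is the share of a transcript among all transcripts of a library, already divided by transcript length, so that levels can be compared between genes. The read depth behind the TPM values is unknown. The 3 Bcl2a1 genes would not have passed that filter without the mature neutrophils, the stage in which their means were highest, and Bcl2a1d also needed 1 progenitor library (1.22 TPM) to pass.

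Pro-survival proteins such as MCL1, BCL2 and BCL-XL (encoded by Bcl2l1) sit at the mitochondrial outer membrane and hold BAX and BAK in check. BH3-only proteins such as BIM (encoded by Bcl2l11) and NOXA (encoded by Pmaip1) bind the pro-survival proteins and so release the effectors. NOXA binds MCL1 and A1, the product of the Bcl2a1 genes, by preference. Neutrophils are short-lived, and MCL1, a protein that turns over rapidly, is known as the factor on which their survival depends.

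Cells came from the bone marrow of adult C57BL/6 mice aged 6 to 12 weeks and were sorted with antibodies against surface markers. RNA-seq covered 3 stages of wild type (WT) cells with 3 libraries each: granulocyte-monocyte progenitors (GMPs), pre-neutrophils (preNeu) and mature neutrophils (matNeu). ChIP-seq for CHD4, the ATPase of the NuRD chromatin complex, covered 1 library of WT GMPs and 1 library of Gfi1-/- GMPs, which carry the same strain background and lack the repressor GFI1. ChIP-seq for H3K4me2, a histone mark of active promoters and enhancers, covered 1 library of each WT stage. Nothing in the labels says that libraries of a stage came from separate animals, so p-values measure only the spread between these libraries. In bulk samples, fewer cells of a type and less RNA per cell cannot be told apart.

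Stages were taken from the sample titles, because the title and the cell type field differed for 13 samples, among them all 9 RNA-seq samples. Marker genes followed the titles. The summed level of 6 GMP markers such as Mpo and Elane had a mean of 46004 TPM in GMPs and 17.2 TPM in matNeu, that of 6 preNeu markers such as Ltf and Camp had a mean of 157037 TPM in preNeu, and that of 6 matNeu markers such as Cxcr2 and Mmp8 had a mean of 36746 TPM in matNeu. Markers of other cells also moved with stage. The sum of 5 monocyte or macrophage markers was 1328 to 1628 TPM in GMPs, 34.2 to 63.6 TPM in preNeu and 335 to 454 TPM in matNeu. In matNeu most of it was Csf1r (mean 304 TPM) and Adgre1 (83.8 TPM). Ccr2, F13a1 and Ms4a6c had means of 0.573, 3.06 and 1.71 TPM there, lower than in preNeu. The sum of 5 eosinophil or basophil markers was 986 to 1237 TPM, 91.2 to 142 TPM and 33.6 to 50.4 TPM in GMPs, preNeu and matNeu. In matNeu nearly all of this sum was Siglecf (mean 41.7 TPM). The 5 T or NK cell markers summed to 458 to 610, 216 to 250 and 1.93 to 4.97 TPM in the same order. In GMPs and preNeu nearly all of it was Nkg7, while Cd3e and Trac had means under 0.2 TPM in every stage. The 5 erythroid or megakaryocyte markers summed to at most 18.3 TPM in any library. The part of such cells in the results was not tested.

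The survival gene with the highest TPM differed between stages: Bcl2 in 2 of 3 GMP libraries, Bcl2l1 in 3 of 3 preNeu libraries and Mcl1 in 3 of 3 matNeu libraries. Bcl2 fell 16.0-fold in mean TPM between GMPs and preNeu, while Bcl2l1 was 2.37-fold higher in preNeu than in GMPs. Mcl1 was 7.13-fold higher in matNeu than in preNeu. On the other side of the balance, Bax and Bak1 were lower in matNeu than in GMPs and the BH3-only genes Bcl2l11 and Pmaip1 were higher.

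Between matNeu and GMPs, 7 of the 10 genes were higher and 3 were lower at a limma adjusted p under 0.05, where 22.8% of all tested genes were higher and 54.1% were lower. Between preNeu and GMPs, 4 were higher and 3 lower, against 14.7% and 44.3% of all tested genes. Between matNeu and preNeu, 5 were higher and 1 lower, against 22.9% and 39.8%. The counts of genes higher in matNeu include Bcl2a1 copies that passed the filter only through that stage, so those calls are no independent support. With the near-identical Bcl2a1 copies added together, 5 of 8 were higher and 3 lower between matNeu and GMPs, 4 higher and 1 lower between matNeu and preNeu, and 4 higher and 3 lower between preNeu and GMPs. Their sum was above 1 TPM in every preNeu library and so passed the filter without matNeu. The comparisons share libraries and are not independent of each other. The median log2 change of all tested genes was -0.52, -0.32 and -0.92 in preNeu against GMPs, matNeu against preNeu and matNeu against GMPs, and the median of the 10 genes was 0.21, 1.2 and 1.85 (-0.08, 0.85 and 1.85 with the copies added together). The few most abundant transcripts shift every TPM value. Under median-ratio scaling the median of all genes was -0.09, -0.07 and -0.20, and the share of called genes that were higher was 45.1% in place of 25.0%, 47.2% in place of 36.5% and 45.2% in place of 29.6%. Without the 100 most abundant genes these shares were 40.7%, 32.0% and 33.6%.

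**Figure D1:**
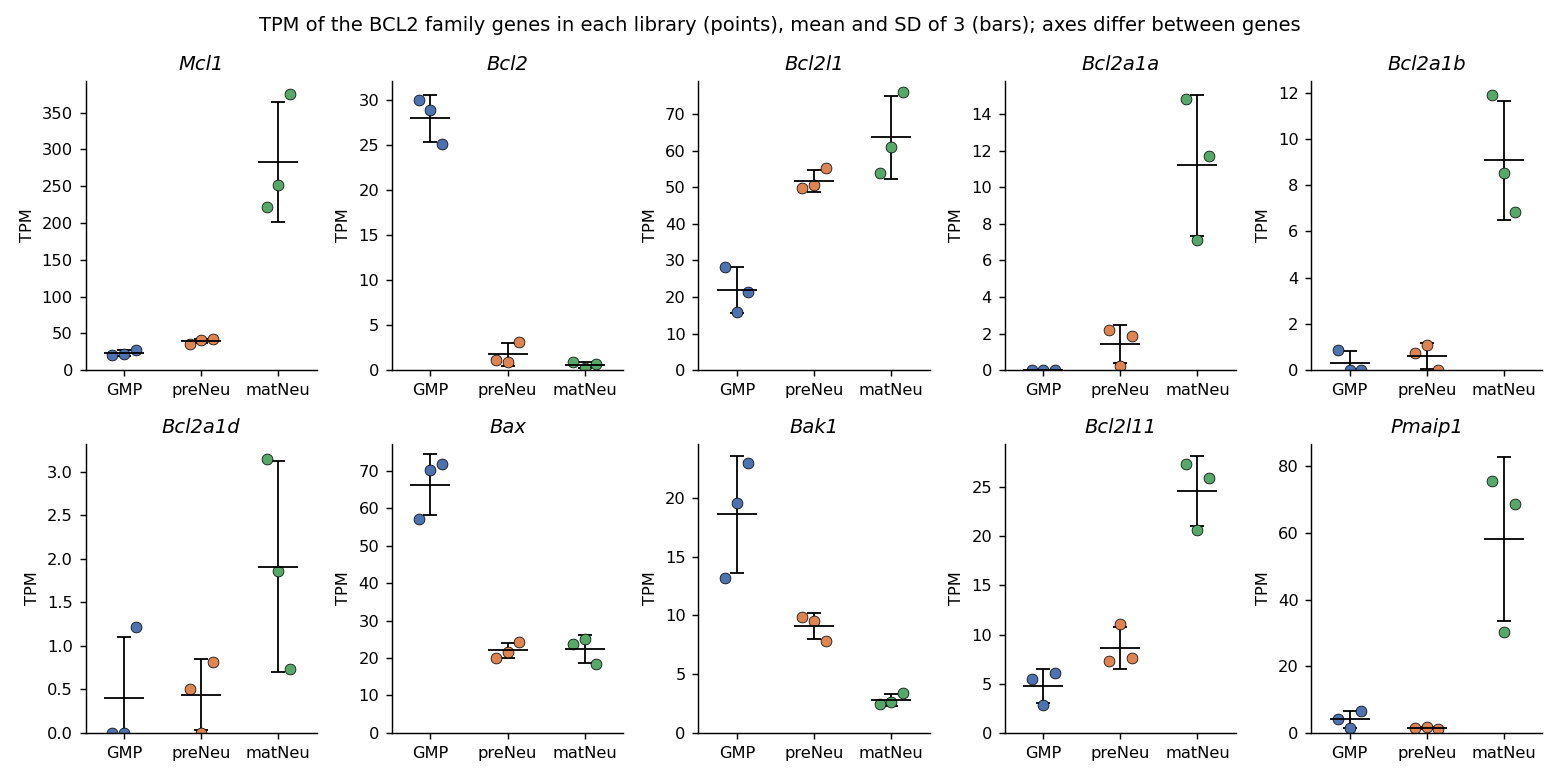
TPM of the 10 genes in each of the 9 libraries (points, coloured by stage), with the mean and the SD of 3 libraries (bars, cut at 0), on a separate axis for each gene. Mcl1, Pmaip1 and Bcl2l11 were highest in all 3 matNeu libraries, while Bcl2, Bax and Bak1 were highest in all 3 GMP libraries.

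Mcl1 lies on chromosome 3 (GRCm38, chr3:95658788-95663176, plus strand). Its level was 20.5, 21.9 and 27.8 TPM in the GMP libraries, 36.2, 41.1 and 41.8 TPM in preNeu, and 222, 252 and 375 TPM in matNeu. The 3 stages did not overlap, and the step into matNeu was the larger one. The difference in log2(TPM + 1) was 0.75 ± 0.20 (SE, limma adjusted p = 0.0083) for preNeu against GMPs and 2.77 ± 0.20 (limma adjusted p = 5.9e-07) for matNeu against preNeu. For matNeu against GMPs it was 3.52 ± 0.20, which is 4.44 above the median of all tested genes (limma adjusted p = 4.4e-08).

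Bcl2, the founding member of the family, ran the other way. The gene spans chr1:106538178-106714274 on the minus strand. Its level was 30, 28.9 and 25.1 TPM in GMPs, 1.19, 0.869 and 3.18 TPM in preNeu, and 0.918, 0.256 and 0.684 TPM in matNeu. Every GMP library lay above every later library, while preNeu and matNeu overlapped. The log2 difference was -3.49 ± 0.33 for preNeu against GMPs (limma adjusted p = 1.0e-05) and -4.18 ± 0.33 for matNeu against GMPs (limma adjusted p = 6.0e-07). For matNeu against preNeu, both near or under 1 TPM in most libraries, it was -0.69 ± 0.33 and did not pass (limma adjusted p = 0.093), although it did without preNeu replicate 2 (-0.92, limma adjusted p = 0.043) and, at the threshold, without the 100 most abundant genes (-0.95, limma adjusted p = 0.050 after rounding).

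Bcl2l1 (chr2:152780668-152831728, minus strand) reached its level early. It was at 28.3, 15.9 and 21.4 TPM in GMPs, 49.8, 50.5 and 55.3 TPM in preNeu, and 53.8, 61.0 and 76.0 TPM in matNeu. All later libraries lay above all GMP libraries, and preNeu and matNeu overlapped. The log2 difference was 1.24 ± 0.21 for preNeu against GMPs (limma adjusted p = 0.00050) and 1.52 ± 0.21 for matNeu against GMPs (limma adjusted p = 5.5e-05). For matNeu against preNeu it was 0.28 ± 0.21 (limma adjusted p = 0.28), and under median-ratio scaling it was 0.64 and passed (limma adjusted p = 0.019).

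The Bcl2a1 genes encode A1, a pro-survival protein of activated and mature leukocytes. They are near-identical copies on chromosome 9: Bcl2a1a (chr9:88956900-88962419, plus strand), Bcl2a1b (chr9:89199209-89207827, plus strand) and Bcl2a1d (chr9:88723285-88731914, minus strand). Their longest transcripts were identical at 98.2% to 99.1% of aligned bases, and of the windows of 31 bases in their transcripts only 20.4%, 11.2% and 10.9% occurred in no other gene, against 88.9% to 100% for the 7 other members. How reads were split among the copies is therefore uncertain. Bcl2a1a was listed at 0 in all 3 GMP libraries, at 2.20, 0.221 and 1.88 TPM in preNeu and at 14.8, 7.11 and 11.7 TPM in matNeu. Bcl2a1b was at 0.890, 0 and 0 TPM in GMPs, 0.764, 1.10 and 0 TPM in preNeu, and 11.9, 8.52 and 6.83 TPM in matNeu. Bcl2a1d was at 0, 0 and 1.22 TPM, then 0.501, 0 and 0.810 TPM, then 3.15, 1.86 and 0.733 TPM. For the first 2 genes every matNeu library lay above every other library, and for Bcl2a1d the stages overlapped. The lowest value among 6 genes that every cell uses, such as Tbp and Hprt, was 17.3 TPM.

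A sum over the 3 copies removes the question of the split among them, but not that of reads shared with any further gene. The summed level was 0.890, 0 and 1.22 TPM in GMPs, 3.46, 1.32 and 2.69 TPM in preNeu, and 29.8, 17.5 and 19.3 TPM in matNeu. The sum was higher in preNeu than in GMPs by 1.06 on the log2(TPM + 1) scale (limma adjusted p = 0.033), and in matNeu than in preNeu by 2.75 (limma adjusted p = 8.5e-05). Taken singly, Bcl2a1a and Bcl2a1b were higher in matNeu than in preNeu by 2.39 ± 0.39 and 2.67 ± 0.38 (limma adjusted p = 0.00031 and 0.00010). No copy taken singly would have been tested without the matNeu libraries, so such p-values for matNeu are no independent support. Bcl2a1d in matNeu did not pass against preNeu (0.97 ± 0.42, limma adjusted p = 0.068), but did without matNeu replicate 3 (1.30, 0.029) and under median-ratio scaling (1.21, 0.025). It passed against GMPs (1.07 ± 0.42, limma adjusted p = 0.039), and without GMP replicate 1 or GMP replicate 2 this was 0.88 (limma adjusted p = 0.13). Bcl2a1a was called higher in preNeu than in GMPs (1.16 ± 0.39, limma adjusted p = 0.026). That call ended without any GMP library (limma adjusted p = 0.058 to 0.061), without preNeu replicate 1 (0.098) or without preNeu replicate 3 (0.086).

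A share of the summed pro-survival TPM within each library does not depend on how the libraries are scaled. The pool was made of the 6 pro-survival members and Bcl2l2 (BCL-W), a further survival gene. Bcl2 made up 34.6%, 40.7% and 31.7% of the pool in the GMP libraries, 1.29%, 0.912% and 3.04% in preNeu, and 0.298%, 0.0774% and 0.145% in matNeu. Mcl1 made up 23.6%, 30.9% and 35.1% in GMPs, 39.3%, 43.2% and 40% in preNeu, and 71.8%, 76.2% and 79.6% in matNeu. Bcl2l1 stood at 32.6%, 22.4% and 27.0%, then at 54.0%, 53% and 52.8%, then at 17.4%, 18.4% and 16.1%. In GMPs the 3 genes held similar shares, and Mcl1 was ahead of Bcl2 in 1 of the 3 libraries. In preNeu Bcl2l1 was first in 3 of 3 libraries, and in matNeu Mcl1 was first in 3 of 3. The share of Bcl2l1 was lower in matNeu than in preNeu although its TPM was not, and the summed pool was 370 ± 88.2 TPM in matNeu against 97.3 ± 6.44 TPM in preNeu and 79.0 ± 7.95 TPM in GMPs (SD, n = 3). Bcl2l2 went from a mean of 6.29% in GMPs to 1.57% and 0.263%, and the Bcl2a1 genes from 0.854% to 2.57% and 6.34%.

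**Figure D2:**
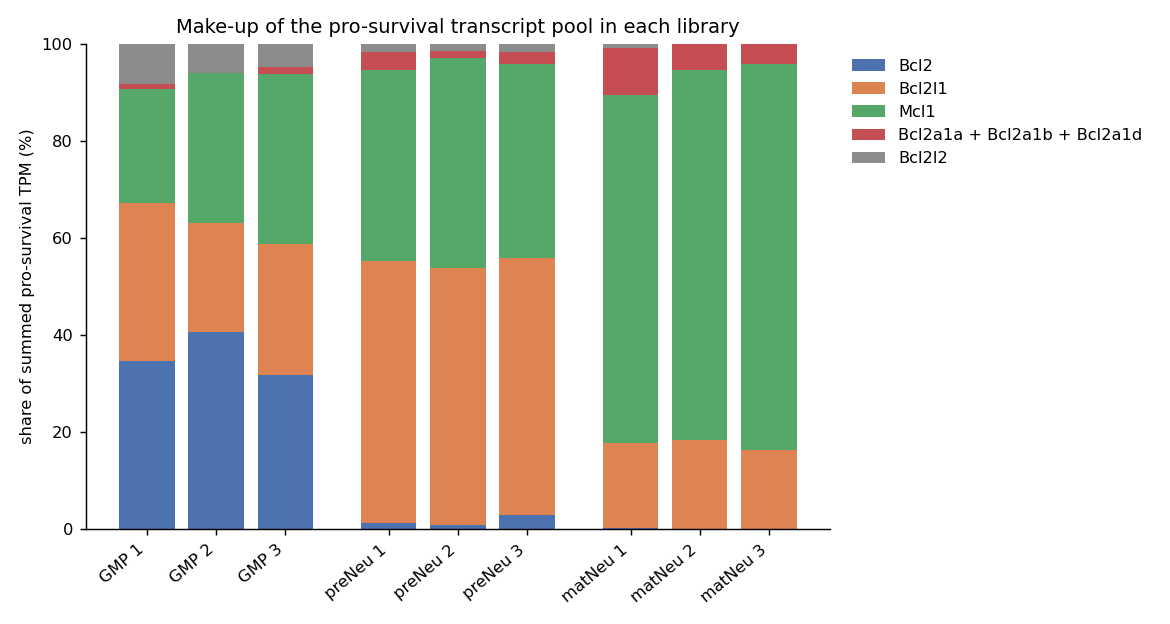
Share of each pro-survival gene in the summed pro-survival TPM (percent, vertical axis) in each of the 9 libraries, with the 3 Bcl2a1 genes added together. Bcl2 filled 31.7% to 40.7% of the pool in GMPs and at most 3.04% in later libraries, and Mcl1 filled 71.8% to 79.6% in matNeu.

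The log2 ratio of Mcl1 to Bcl2 TPM was -0.55, -0.40 and 0.15 in GMPs, 4.92, 5.57 and 3.72 in preNeu, and 7.91, 9.94 and 9.10 in matNeu. Over the 9 libraries, the genes outside the lists whose log2(TPM + 1) followed Mcl1 most closely were Dennd5a (Pearson r = 0.998), Cytip (0.996) and Braf (0.995), and for Bcl2 they were P4ha1 (0.996), Plpp2 (0.996) and Tmem201 (0.994). The libraries fall into 3 stages, so that many genes come this close: 177 of 12962 genes had r above 0.98 with Mcl1, and 134 with Bcl2. Cytip was at 44.3, 73.7 and 589 TPM in the mean of the 3 stages, and Plpp2 at 26.6, 1.18 and 0.533 TPM.

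The effectors BAX and BAK form the pores through which cytochrome c leaves the mitochondria. Bax (chr7:45461697-45466898, minus strand) was at 57.1, 70.2 and 71.8 TPM in GMPs, 20.1, 21.6 and 24.3 TPM in preNeu, and 23.8, 25.0 and 18.3 TPM in matNeu. Every GMP library lay above every later one, and preNeu and matNeu overlapped. The log2 difference was -1.55 ± 0.18 (limma adjusted p = 3.4e-05) for preNeu against GMPs and 0.02 ± 0.18 (limma adjusted p = 0.95) for matNeu against preNeu, a value whose sign turned when the 100 most abundant genes were left out. Bak1 (chr17:27019810-27029009, minus strand) was at 13.2, 19.6 and 23.0 TPM in GMPs, 9.91, 9.53 and 7.86 TPM in preNeu, and 2.42, 2.66 and 3.38 TPM in matNeu. Its 3 stages did not overlap. The log2 difference was -0.93 ± 0.26 for preNeu against GMPs (limma adjusted p = 0.0094), -1.41 ± 0.26 for matNeu against preNeu (limma adjusted p = 0.00062) and -2.33 ± 0.26 for matNeu against GMPs (limma adjusted p = 8.1e-06). The first of these lay only 0.41 below the median of all tested genes and did not pass under median-ratio scaling (-0.45, limma adjusted p = 0.18) or without the 100 most abundant genes (-0.56, limma adjusted p = 0.11). The ratio of Bax to Bak1 TPM was 4.32, 3.57 and 3.13 in GMPs, 2.03, 2.26 and 3.09 in preNeu, and 9.86, 9.43 and 5.40 in matNeu.

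The BH3-only gene Bcl2l11 encodes BIM, which binds all main pro-survival proteins. It spans chr2:128126038-128162547 on the plus strand. Its level was 5.48, 2.79 and 6.08 TPM in GMPs, 7.27, 11.1 and 7.59 TPM in preNeu, and 27.3, 20.6 and 25.9 TPM in matNeu, with no overlap between stages. The log2 difference was 1.42 ± 0.29 for matNeu against preNeu (limma adjusted p = 0.0013) and 2.19 ± 0.29 for matNeu against GMPs (limma adjusted p = 3.4e-05). For preNeu against GMPs it was 0.77 ± 0.29 (limma adjusted p = 0.039). This call ended without GMP replicate 2 (0.49, limma adjusted p = 0.15), preNeu replicate 2 (0.59, 0.14) or preNeu replicate 3 (0.84, 0.054). It also ended with no filter on low values (0.066), with the other stage left out of the fit (0.062) and with a replicate block (0.056).

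Pmaip1, which encodes NOXA, lies at chr18:66458533-66465565 on the plus strand. It was at 4.26, 1.43 and 6.54 TPM in GMPs, 1.37, 1.77 and 1.21 TPM in preNeu, and 75.7, 30.2 and 68.7 TPM in matNeu. Every matNeu library lay above every earlier one, and GMPs and preNeu overlapped. The log2 difference was 4.5 ± 0.44 for matNeu against preNeu (limma adjusted p = 6.4e-06), the largest of any of the 10 genes in that comparison. Pmaip1 in preNeu against GMPs did not pass (-0.91 ± 0.44, limma adjusted p = 0.10), but passed without GMP replicate 2 (-1.37, limma adjusted p = 0.016). Of the matNeu libraries, replicate 2 was the lowest for both Pmaip1 and Bcl2l11.

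**Figure D3:**
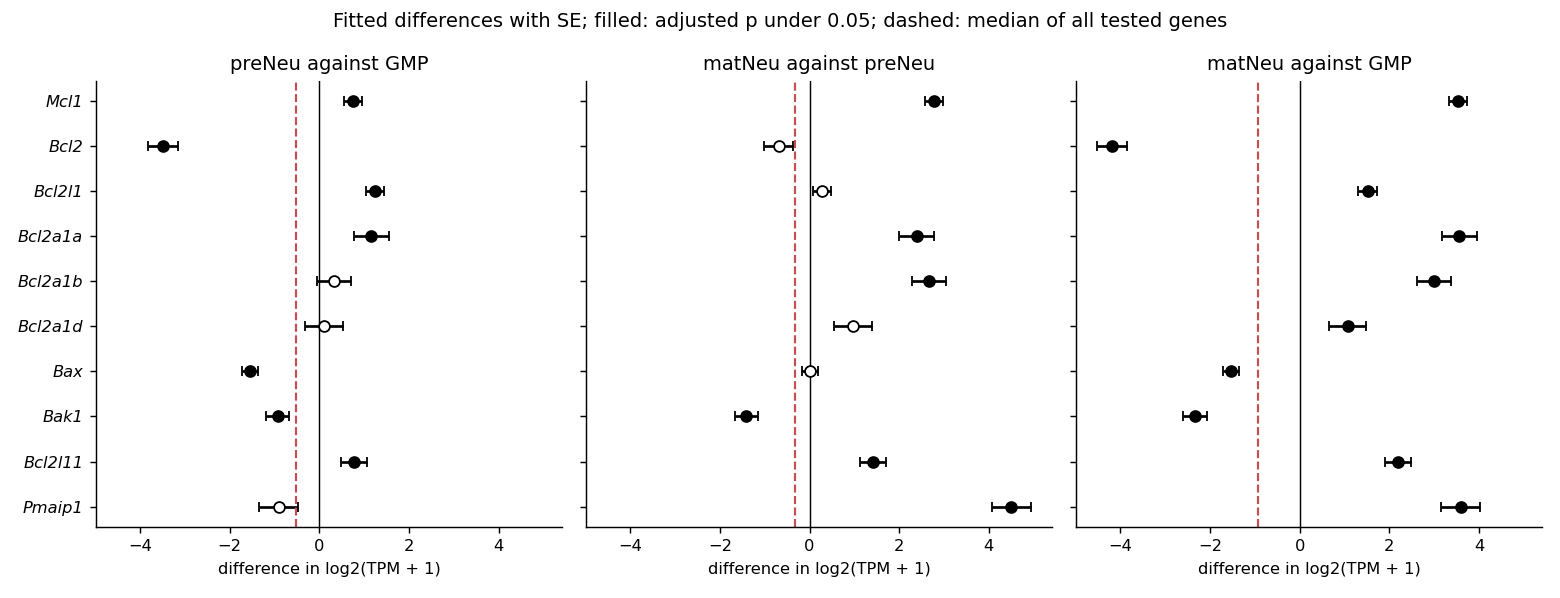
Fitted difference in log2(TPM + 1) with its SE for each of the 10 genes in the 3 comparisons, filled where the limma adjusted p was under 0.05. The dashed line is the median of all tested genes, at -0.52, -0.32 and -0.92, and Mcl1, Bcl2a1a and Pmaip1 lie farthest to its right in matNeu against GMPs.

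Ratios of summed TPM set the groups against each other, and as sums over chosen genes they carry no test. The ratio of the pro-survival sum to Bax plus Bak1 was 1.24, 0.790 and 0.835 in GMPs, 3.07, 3.06 and 3.25 in preNeu, and 11.7, 12.0 and 21.8 in matNeu, with no overlap between stages. The ratio of the pro-survival sum to Bcl2l11 plus Pmaip1 was 8.91, 16.8 and 6.27 in GMPs, 10.7, 7.41 and 11.9 in preNeu, and 3.0, 6.53 and 4.98 in matNeu. For the latter ratio GMPs and matNeu overlapped, and every preNeu library lay above every matNeu library. That ratio does not stand for the BH3-only genes as a group. It leaves out Bid, with means of 196, 81.6 and 190 TPM in GMPs, preNeu and matNeu. Bad, with means of 33.9, 23.5 and 23.9 TPM, is also left out, while the pro-survival sum includes Bcl2l2. Sums of transcripts say nothing of protein amounts.

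Other genes of the pathway were followed as lists, which were chosen with earlier results of these data known. Their counts and medians for matNeu against GMPs are to be read beside 22.8% higher, 54.1% lower and a median of -0.92 over all tested genes. Of 8 pro-survival genes 7 were tested, with a median of 1.52. These 7 include the Bcl2a1 copies, which would not have been tested singly without matNeu. Outside the members, Bcl2l2 was lower in matNeu (2.44, 0 and 0 TPM) than in GMPs (7.13, 4.24 and 3.70 TPM) with a log2 difference of -1.96 ± 0.46 (limma adjusted p = 0.0024), and Bcl2l10 was listed at 0 in all 9 libraries. Bok, the third effector, stayed at or under 1.25 TPM and was not tested.

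Of 8 BH3-only genes 6 were tested, and 4 were higher and 0 lower in matNeu than in GMPs, with a median of 1.83. Besides Bcl2l11 and Pmaip1 these were Bmf (10.2 against 1.18 TPM, 2.51 ± 0.48, limma adjusted p = 0.00060), which senses detachment and cytoskeletal damage, and Bbc3, the p53 target PUMA (6.78 against 1.78 TPM, limma adjusted p = 0.0078). Between matNeu and preNeu 5 of the 6 were higher and 0 lower, beside 22.9% and 39.8% of all tested genes. The fifth was Bid, which links death receptors to mitochondria (190 against 81.6 TPM, 1.22 ± 0.14, limma adjusted p = 2.3e-05). Against GMPs, Bid in matNeu was not called (190 against 196 TPM, -0.05 ± 0.14, limma adjusted p = 0.77). Bbc3 and Bid are named here after their values were seen.

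Downstream of the pore, in the apoptosome and caspase list, 1 of 12 genes was higher and 9 were lower in matNeu than in GMPs, beside 22.8% and 54.1% of all tested genes, with a median of -1.60. Cycs, which encodes the cytochrome c that starts the apoptosome, fell from 71.9 to 7.99 TPM (-3.12 ± 0.31, limma adjusted p = 3.7e-06), and Aifm1, a flavoprotein of the inner membrane, from 101 to 6.26 TPM (-3.81 ± 0.20, limma adjusted p = 1.9e-08). Casp9, the initiator caspase of this route, was the gene that rose (28.6 against 19.4 TPM, 0.54 ± 0.20, limma adjusted p = 0.028). Under median-ratio scaling 3 were higher and 8 lower, beside 34.4% and 41.8% of all tested genes.

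All 4 outer membrane partners were lower in matNeu than in GMPs, with a median of -2.90, and the count was the same under both other scalings. Vdac3, a porin, went from 406 to 34.7 TPM (limma adjusted p = 3.5e-09) and Mtch2, a receptor for the active form of BID, from 322 to 40.4 TPM (limma adjusted p = 2.4e-08). Of the 5 tested genes for turnover of MCL1 and BIM, 0 were higher and 3 lower, with a median of -1.05, near the 54.1% lower and the median of -0.92 of all tested genes. Among them Huwe1, a ubiquitin ligase that marks MCL1 for degradation, fell from 54.9 to 6.57 TPM (-2.90 ± 0.23, limma adjusted p = 5.6e-07). Btrc fell from 41.5 to 17.5 TPM (limma adjusted p = 0.00087), a call that ended under median-ratio scaling (limma adjusted p = 0.16), where 1 gene of this list was lower.

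Inhibitors of apoptosis split, with 3 of 7 tested genes higher and 3 lower in matNeu than in GMPs (median 0.41). Birc3, the ubiquitin ligase cIAP2, rose from 40.3 to 247 TPM (2.58 ± 0.15, limma adjusted p = 5.4e-08) and Xiap, a direct caspase inhibitor, from 13.5 to 21.1 TPM (limma adjusted p = 0.018). Birc5, or survivin, which acts in cell division, fell from 141 to 1.04 TPM (-6.14 ± 0.18, limma adjusted p = 6.1e-10), and Birc6 from 79.3 to 27.8 TPM (limma adjusted p = 3.9e-06).

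In the death receptor list 3 of 9 tested genes were higher and 3 lower (median 0.14), and 6 were higher and 2 lower under median-ratio scaling. The receptor Fas was at 295 TPM in matNeu against 4.29 TPM in GMPs (5.82 ± 0.21, limma adjusted p = 1.5e-09), and Tnfrsf1a, a TNF receptor, at 661 against 155 TPM (limma adjusted p = 3.7e-08). The adaptor Fadd was listed at 0 in matNeu against 16.4 TPM in GMPs, and Casp8, which FADD recruits, fell from 152 to 30.2 TPM (limma adjusted p = 1.9e-07).

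Among p53 and FOXO regulators 2 of 5 tested genes were higher and 1 was lower (median 0.02). Trp53, which encodes p53, fell from 378 to 12.5 TPM (-4.81 ± 0.13, limma adjusted p = 3.2e-10). Foxo3, a factor known to act on Bcl2l11, rose from 12.4 to 39.8 TPM (1.61 ± 0.18, limma adjusted p = 1.0e-05), and Mdm2 from 56.8 to 97.3 TPM (limma adjusted p = 0.0030). Of the 6 other BCL2-related genes 2 were higher and 3 lower (median -0.86). The mitophagy receptors Bnip3 (120 against 40 TPM) and Bnip3l (476 against 218 TPM) rose (limma adjusted p = 5.1e-06 and 4.6e-05), while Bcl2l12 (1.41 against 45.7 TPM) and Bcl2l14 (0.0403 against 6.28 TPM) fell (limma adjusted p = 6.1e-08 and 3.8e-06).

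In WT GMPs CHD4 peaks were dense at the Bcl2a1 copies and at Bcl2, and none lay near 5 of the members. A ChIP-seq peak is a region where reads pile up over background, and its fold enrichment is the authors' ratio of signal to background. Within 10 kb of the 10 genes lay 48 of the 35790 CHD4 peaks of WT GMPs: 21 at Bcl2, 8 at Bcl2a1a, 10 at Bcl2a1b, 8 at Bcl2a1d and 1 at Pmaip1. Mcl1, Bcl2l1, Bax, Bak1 and Bcl2l11 had none. So 5 of the 10 members had a peak, or 3 of 8 with the Bcl2a1 copies counted once, where 32.4% of the 21938 protein-coding genes did. Only 0.615% of protein-coding genes had as many CHD4 peaks as Bcl2 (a long gene, with room for more), and 2.88% had as many as Bcl2a1b, a short gene.

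At the Bcl2a1 copies 11 of 26 peaks had a fold of at least 20, and 9 lay under the median of the list. About 3.5 kb upstream of each start lay a peak with a fold enrichment of 74.4 at Bcl2a1a, 75.5 at Bcl2a1b and 69.2 at Bcl2a1d, which ranked 26, 25 and 54 of 35790. The median fold of the list was 7.72 and the highest 101. A further peak lay over each start, with a fold of 52.1 at Bcl2a1a, 39.4 at Bcl2a1b and 44.4 at Bcl2a1d. In WT GMPs these genes were at or near 0 TPM, as given above. Because the copies are near identical, a read of 50 bases often cannot be placed. Of the windows of 50 bases in all peaks near a copy, 23.2% at Bcl2a1a, 24.5% at Bcl2a1b and 30.8% at Bcl2a1d occurred once on chromosome 9. In the upstream peaks alone these shares were 33.3%, 7.33% and 10.9%, and in the start peaks 35.8%, 30.2% and 35.6%. How the authors' aligner placed the other reads is not given in the sources used here, so the 3 copies cannot be counted as separate evidence.

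Of the 48 peaks near members, 10 (20.8%) overlapped a CHD4 peak of Gfi1-/- GMPs, beside 18.5% of all 35790. The Gfi1-/- list held 7316 peaks, and 4 members, or 2 of 8 with the copies counted once, had one within 10 kb, where 10.2% of protein-coding genes did. At Bcl2, 1 of 21 peaks was kept. At the Bcl2a1 copies 9 of 26 were kept, among them the upstream and the start peak of each copy. Matching peaks of the near-identical copies are not separate evidence, also within the 10 of 48. The upstream peaks had a fold of 19.1, 21.6 and 16.7 in Gfi1-/- GMPs (ranks 197, 120 and 287 of 7316), and the start peaks 11.7, 11.7 and 11.9. The only peak at Pmaip1, 15.5 kb downstream of the start with a fold of 13, was not kept.

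Whether a peak was kept went with its strength in WT GMPs. Of the 12 peaks near members with a fold of at least 20, a round number chosen after the values were seen, 10 were kept, against 90.5% of all such peaks. Of these 12, 11 lay at the near-identical Bcl2a1 copies, as did 9 of the 10 kept, so they are not separate pieces of evidence. With a fold of at least 40, 5 of 5 were kept (100% of all), every one of them at the copies. Under 20, 0 of 36 were kept, where 9.53% of all such peaks were. Just inside and just outside that line were a Bcl2a1b peak of 20.0 and a Bcl2a1d peak of 18.3, neither of them kept. The only other peak above it that was not kept was at Bcl2a1b with a fold of 24.5. With 1 library of each genotype and unknown depth, a peak that was gone cannot be told apart from a peak that the shorter list missed.

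**Figure D4:**
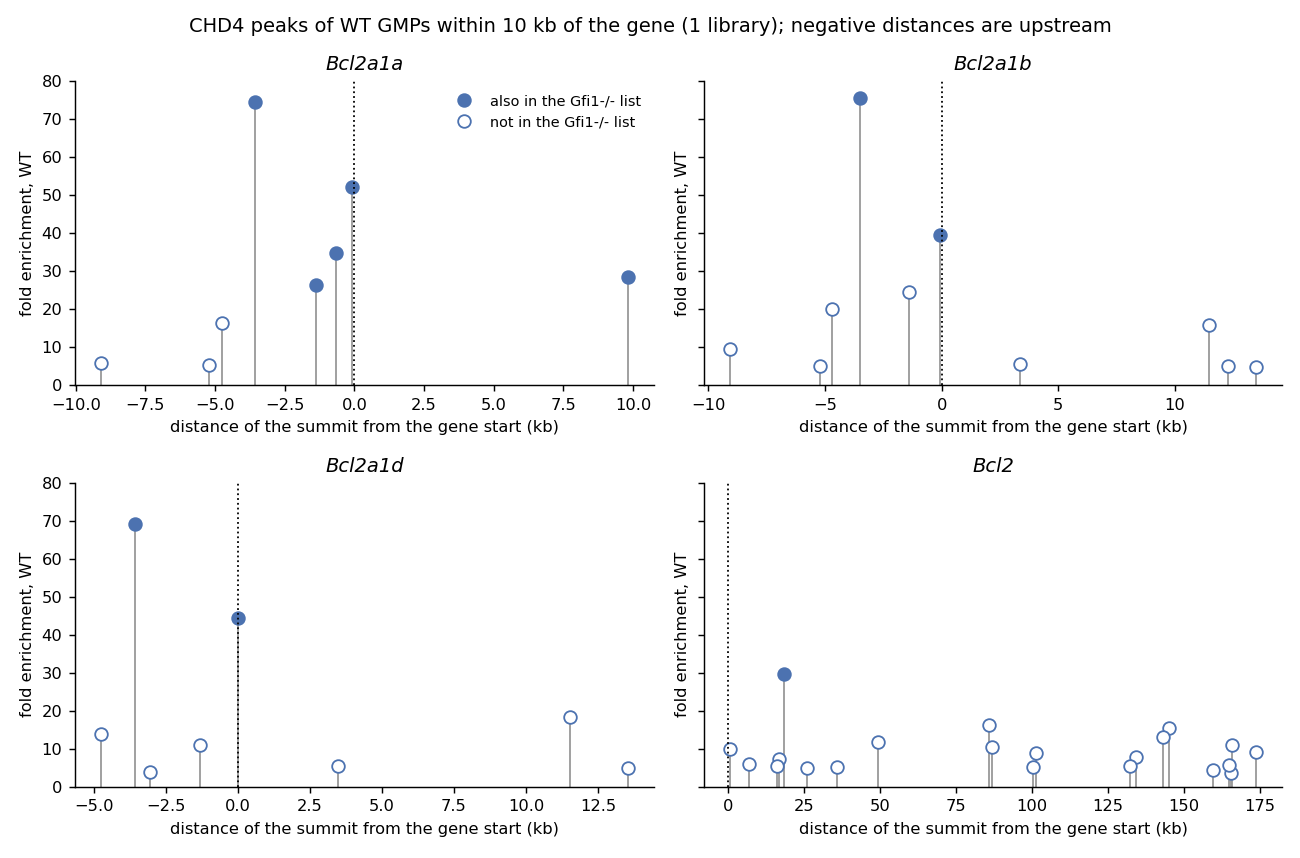
CHD4 peaks of WT GMPs (1 library) within 10 kb of the 3 Bcl2a1 copies and of Bcl2, by distance of the summit from the gene start in kb and fold enrichment, filled where a peak of Gfi1-/- GMPs overlapped. Each Bcl2a1 copy has a filled peak of 69.2 to 75.5 about 3.5 kb upstream and another at its start, and 1 of 21 peaks of Bcl2 is filled.

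The stretch under the upstream peak is shown for 2 copies, 220 bases around the summit in the direction of the gene, to let the near identity be seen. The strongest peaks of the copies were identical at 98.7% to 99.8% of aligned bases. Capitals mark the core AAATCA of the GFI1 site, searched on both strands together with GAGGAAGT, the core of the SPI1 (PU.1) site. The windows are chr9:88953214-88953433 and chr9:89195582-89195801 of GRCm38, plus strand.
Bcl2a1a, upstream peak: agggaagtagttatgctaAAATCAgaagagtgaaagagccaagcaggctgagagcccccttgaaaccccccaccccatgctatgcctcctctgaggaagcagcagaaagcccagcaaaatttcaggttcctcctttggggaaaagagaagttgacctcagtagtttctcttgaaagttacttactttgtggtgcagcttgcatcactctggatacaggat
Bcl2a1b, upstream peak: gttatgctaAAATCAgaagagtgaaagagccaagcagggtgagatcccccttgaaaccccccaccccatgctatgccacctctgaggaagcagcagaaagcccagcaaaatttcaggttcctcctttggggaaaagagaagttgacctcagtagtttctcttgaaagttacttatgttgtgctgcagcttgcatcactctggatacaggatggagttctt
All 3 copies held 1 match to AAATCA here and 0 to GAGGAAGT. A match to AAATCA was found in 13.5% of the windows of this length at all CHD4 summits in WT GMPs. The windows were set to a length at which this match, near their edge, falls inside for every copy. The share over all summits is therefore no test of the match at the copies.

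The start peak of the copies covers the promoter, shown for Bcl2a1b as the 240 bases before the annotated start (chr9:89198969-89199208, plus strand), with GAGGAAGT in capitals.
Bcl2a1b, before the start: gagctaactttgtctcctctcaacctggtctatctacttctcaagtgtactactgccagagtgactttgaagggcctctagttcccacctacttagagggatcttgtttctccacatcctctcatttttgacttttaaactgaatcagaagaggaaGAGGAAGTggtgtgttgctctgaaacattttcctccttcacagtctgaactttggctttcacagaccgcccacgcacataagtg
Each of the 3 copies held 1 match to GAGGAAGT in this window and 0 to AAATCA. Of 32851 RefSeq promoters (GRCm38), 2.39% held GAGGAAGT and 11.9% held AAATCA in the same 240 bases. The copies were identical at 97.9% to 99.2% of aligned bases here, so the 3 matches lie in 1 near-identical sequence.

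The kept peak of Bcl2 lies in an intron 18.4 kb behind the start (chr1:106695627-106696213), with a fold of 29.8 in WT GMPs, rank 1715, and 7.21 in Gfi1-/- GMPs. The 220 bases around its summit (chr1:106695763-106695982, minus strand) are shown beside the 240 bases before the start of Mcl1 (chr3:95658548-95658787, plus strand), the promoter of the gene that led in matNeu and had no CHD4 peak.
Bcl2, intronic peak: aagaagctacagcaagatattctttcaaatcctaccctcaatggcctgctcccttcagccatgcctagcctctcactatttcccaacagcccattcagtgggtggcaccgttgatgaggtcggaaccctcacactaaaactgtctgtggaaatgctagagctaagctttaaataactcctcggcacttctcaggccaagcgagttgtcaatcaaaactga
Mcl1, before the start: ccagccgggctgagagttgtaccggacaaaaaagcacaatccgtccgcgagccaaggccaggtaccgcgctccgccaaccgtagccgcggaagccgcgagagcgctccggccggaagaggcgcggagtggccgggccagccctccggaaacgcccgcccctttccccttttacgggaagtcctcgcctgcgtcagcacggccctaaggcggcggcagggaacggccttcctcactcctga
Neither window held AAATCA or GAGGAAGT. Of the 21 Bcl2 peaks, 19 had their summit in an intron and 2 in an exon, spread over the whole gene, and their folds ranged from 3.75 to 29.8. The peak nearest the Bcl2 start, 0.487 kb inside the gene, had a fold of 9.88 and was not kept.

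H3K4me2 covered the starts of all 10 members in preNeu, those with low TPM included. Within 10 kb of the members lay 33 peaks in GMPs, 52 in preNeu and 44 in matNeu, from lists of 37643, 49578 and 44094 peaks. With equal numbers of peaks the counts lay closer together, as given in the closing section. At least 1 peak was found at 9, 10 and 10 members, where 73.6%, 74.2% and 72.1% of protein-coding genes had one. A peak covered the start of 6 members in GMPs, 10 in preNeu and 9 in matNeu, where 49.7%, 55.2% and 52.8% of protein-coding genes had one over the start. In these counts each near-identical Bcl2a1 copy stands as a member of its own. For Bak1 and Bcl2l1 the missing cases were misses by under 100 bp. The lists differ in strength, with a median fold of 2.89, 4.55 and 3.78, so that folds were compared only as percentiles within their own list. At a -log10 q-value of at least 5 only 5 peaks near members remained in GMPs, against 35 and 22. The share of all peaks past that limit was not counted.

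Bcl2 carried the mark at all stages, also where its TPM was low. The peak over its start stood at the 67.1 percentile of its list in GMPs, with a fold of 3.28 and a width of 6632 bp. It stood at the 94.7 percentile in preNeu (fold 12.4, 4595 bp) and at the 94.4 percentile in matNeu (fold 10.3, 3316 bp). Over the same stages the mean TPM of Bcl2 went from 28.0 to 1.75 and 0.620. In GMPs, where its TPM was highest, the peak of Bak1 (3053 bp, fold 3.45) began 94 bp inside the gene and so missed the start, and peaks over the start stood at the 97.7 and 94.6 percentiles in preNeu and matNeu.

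At Mcl1 the peak over the start was 5181 bp wide in GMPs, 7803 bp in preNeu and 20154 bp in matNeu, with percentiles of 80.2, 96.8 and 90.6. In preNeu the stretch of this matNeu peak held separate peaks of 7803, 516, 2890 and 4687 bp. The greater width in matNeu therefore came from gaps joined into a single called peak, while the fold was lower (9.31 against 13.3). H3K4me2 covered 40%, 74.9% and 95.2% of the 24389 bp that run from 10 kb before to 10 kb behind Mcl1. Over all 10 members the median covered share was 11.4%, 25.2% and 23.5%, beside 3.83%, 6.43% and 4.81% for protein-coding genes. Peaks of the 3 lists covered 49.8, 97.9 and 80.4 Mb in all.

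The Bcl2a1 copies had the weakest start peaks. Bcl2a1a and Bcl2a1b had no H3K4me2 peak over the start in GMPs, and Bcl2a1a had none within 10 kb. Bcl2a1d had one of 687 bp at the 11.9 percentile. In preNeu the copies stood at the 45.9, 45.3 and 61.4 percentiles, and in matNeu at 59.7, 55.3 and 52.7. How reads of the near-identical copies were placed is unknown for this mark as for CHD4. A weak or absent mark at the copies therefore cannot be told apart from reads that were not placed there. Bcl2l11, Bax and Pmaip1 were marked over the start at every stage. The percentiles were 95.7, 99.8 and 98.3 for Bcl2l11, 96.6, 86.1 and 94.3 for Bax, and 93.2, 96.9 and 96.8 for Pmaip1. Bcl2l1 had a peak over its annotated start in preNeu (63.5 percentile). In GMPs and matNeu its nearest peak began 67 and 15 bp inside the gene, so that a few bases decide this count. It had 7, 8 and 7 peaks within 10 kb.

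**Figure D5:**
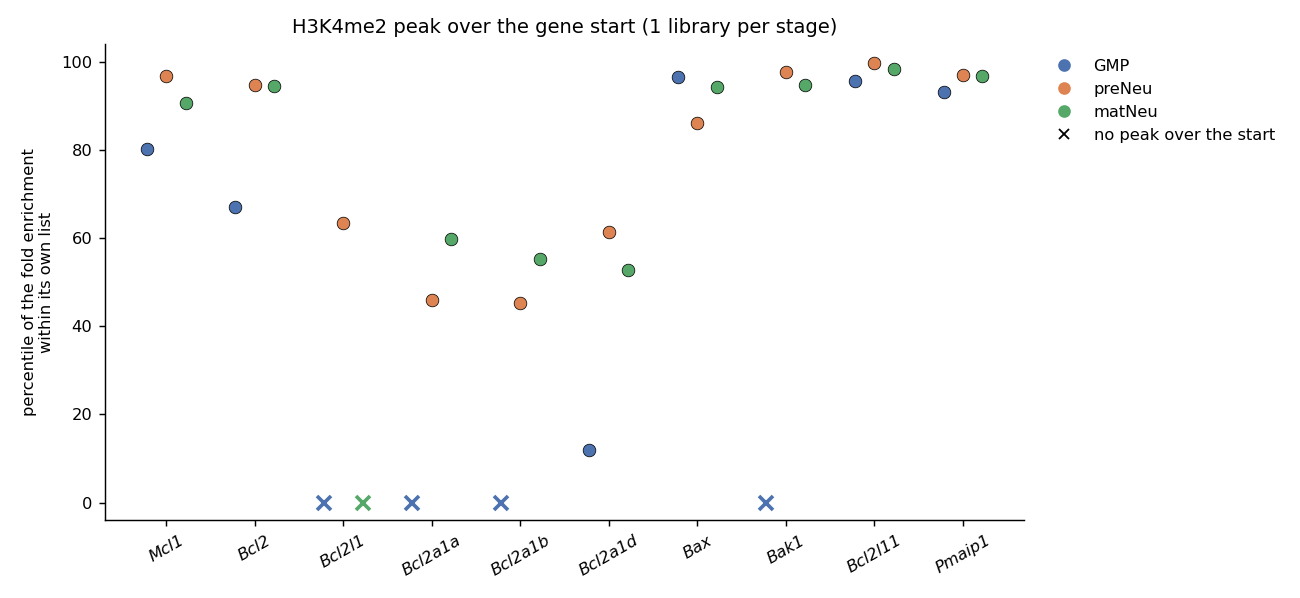
Percentile of the fold enrichment, within its own list, of the H3K4me2 peak over the start of each gene at the 3 stages (1 library each), with a cross at 0 where no peak covered the start (at Bak1 and Bcl2l1 a peak began 15 to 94 bp inside the gene). Bcl2 stands at 67.1, 94.7 and 94.4, and the 3 Bcl2a1 copies stay at or under 61.4.

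Of the 48 CHD4 peaks of WT GMPs near members, 10 overlapped an H3K4me2 peak of GMPs, 26 one of preNeu and 23 one of matNeu. Of all CHD4 peaks of WT GMPs, 37.8%, 59.5% and 52.5% overlapped the mark. CHD4 was profiled in GMPs only, so the later counts set CHD4 sites of GMPs beside the mark in other cells. At the Bcl2a1 copies the count was 6 of 26 in GMPs and 16 of 26 at each later stage. At Bcl2 it was 4, 9 and 6 of 21. The ATAC-seq lists deposited for preNeu and matNeu, which record open chromatin, were the same in all 16307 peaks, and the stage they belong to cannot be told apart. In that list 8 members had a peak within 10 kb, where 52.9% of protein-coding genes did, and 4 had one over the start, where 30.3% did: Mcl1, Bcl2, Bcl2l1 and Bcl2l11. At Bax a peak began 10 bp inside the gene and so missed the start.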

How the data were processed

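Samples were grouped by their titles. The 10 genes and the pathway and marker lists were chosen with earlier results of these data known. The authors deposited TPM per gene and library in 1 table, which keeps no read depth, so that no count test was used. The submitters' processing notes name kallisto 0.44.0, BWA 0.7.17, MACS2 2.1.0 and mm10, without their roles. Peak lists carry the authors' fold enrichment, a linear ratio over background, and the authors' −log10 q-value per peak. The read depth behind the peaks is unknown. Lists for GFI1 and H3K4me3, whose coordinates do not match GRCm38, were not used here, and all columns of the table were used (0 left out).

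Differences were fitted with limma 3.58.1 in R 4.3.3 with a trend on log2(TPM + 1). A gene was tested if 3 or more libraries reached 1 TPM. All 9 libraries entered, with cell type as the only term and Benjamini-Hochberg adjustment over every gene tested, at 0.05. A fold change on this scale understates the change of low genes. Simulated data with known changes were used to check the fit. Ratios of mean TPM are descriptive. Peaks were assigned to genes of GENCODE M21 within 10 kb of either end, and CHD4 peaks overlapping by at least 1 bp were called kept. With 1 library per group no test was made on peaks. Sequences came from GRCm38 and promoters from RefSeq, read with Python 3.11.15 and Biopython. The text names all 10 members, the 3 nearest genes of Mcl1 and Bcl2 by Pearson r, and from each list up to 2 called genes with the largest change each way in matNeu against GMPs, with exceptions named as such. Alternatives were a pseudocount of 0.1, no filter, a filter of 5 TPM, 2 scalings, the 2 compared cell types alone, a replicate block, no trend, the Bcl2a1 genes summed, each library left out, a pool of 3 genes, a −log10 q-value of at least 5, windows of 50 kb, an overlap covering 50% or more of the shorter peak and equal numbers of H3K4me2 peaks. The B cell marker list is not reported here.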

Additional observations from a re-analysis of the deposited data

How the results depend on the processing

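TPM keeps no depth, and peaks had 1 library per group, so small differences could not be judged. Of 427 values of single members that were still tested under the alternatives, 396 kept their direction and their side of the threshold. Of the rest, 18 lost the call, 6 gained it and 7 changed sign, none of these 7 a called value. Calls of genes that fell under the filter in an alternative, such as Bcl2a1d at 5 TPM, were lost in addition to the 18. The sign changed for Bax in matNeu against preNeu (0.02) without the 100 most abundant genes (-0.17) and when single libraries were left out (-0.07 to 0.15), and for Bcl2a1d in preNeu against GMPs (0.10) when single libraries were left out (-0.09 to 0.34). Over the single libraries left out, the number of members called was 5 to 6 for preNeu against GMPs (7 with all libraries), 6 to 7 for matNeu against preNeu (6) and 9 to 10 for matNeu against GMPs (10). Without a filter on low values 5, 6 and 9 members were called, and with a filter of 5 TPM 7, 6 and 9, of 9 tested. In a pool of Mcl1, Bcl2 and Bcl2l1 alone, Mcl1 held 81.2% in matNeu, and Bcl2l1 held 55.6% in preNeu and 18.6% in matNeu. The share of CHD4 peaks kept was 20.8% to 22.2% under every alternative tried. H3K4me2 peaks near members numbered 73, 103 and 86 with windows of 50 kb, 5, 35 and 22 at a -log10 q-value of at least 5, and 33, 43 and 36 with equal numbers of peaks.

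Replicate numbers are shared between stages. Of 9 same-numbered pairs 1 correlated above 0.1 in its deviations from the stage means (-0.04 to 0.12), and in 5 of the 9 a library's highest correlation was with its own number, so the numbers were not taken as pairs. With a replicate block 6, 6 and 9 members were called in the 3 comparisons. Bcl2l11 in preNeu against GMPs (limma adjusted p = 0.056) and Bcl2a1d in matNeu against GMPs (0.052) were no longer called.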
